A study of Mus musculus with 2 samples.

Results

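The genes described here are 7 of the 15526 genes in the table: the ligands Cd47, Cd200, H2-T23 and Cd274, and the receptors Sirpa, Cd200r1 and Pdcd1. They were taken by name, as ligands that restrain T cells, natural killer (NK) cells or phagocytes and as receptors for such ligands, and all 7 were present in the table. Their levels were compared over 1344 single lung cells sorted for the fluorescent protein mCherry. The cells came from p16-FDR mice of the C57BL/6 strain aged 20 to 22 months, in 1 group with 2 samples. The p16-FDR allele carries an FLP recombinase and a diphtheria toxin receptor joined to mCherry, as a reporter of p16, the cell cycle inhibitor encoded by Cdkn2a and a widely used marker of senescence. All cells carried the reporter allele and had passed the mCherry gate. Cells outside that gate, younger mice and mice without the allele were not analysed here, so no value below is a change with age or with senescence.

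CD47 on a cell surface binds SIRPα on macrophages, whose cytoplasmic tail recruits the phosphatases SHP-1 and SHP-2 and restrains engulfment, hence the name do-not-eat-me signal. CD200 binds CD200R1 of myeloid cells and some T cells, which restrains their activation through the adaptors DOK1 and DOK2. PD-L1, encoded by Cd274, binds PD-1, encoded by Pdcd1, on activated T cells, and H2-T23 encodes Qa-1b, the mouse counterpart of human HLA-E, which presents leader peptides to the inhibitory NKG2A receptor of NK and CD8 T cells.

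Library 1 held 1145 cells with a median of 5631 unique molecular identifiers (UMIs, counted transcript molecules) per cell, and library 2 held 199 cells with a median of 6716. No cell barcode was shared by the libraries. The cell names give a library number that cannot be tied to either sample, so both were pooled as 1 sample, no test was run, and values within each library stand beside the pooled ones. A rate is the sum of a gene's UMIs over a class per 10000 UMIs of that class. Its 95% interval (exact Poisson) covers counting error only. Rates describe 1 gene across classes. They are 3′ end counts and were not compared between genes. An mCherry UMI was seen in 73 of 1344 cells (5.43%, 4.28 to 6.78%, exact binomial interval) and a Cdkn2a UMI in 449 (33.4%, 30.9 to 36.0%).

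The cells fell into 11 classes formed by clustering without the genes described. The endothelial-like classes were 2: capillary-aerocyte-like cells (454 cells, led by Apln, Car4 and Kdr) and Vwf-high endothelial-like cells (150 cells, led by Vwf, Plvap and Edn1). General capillary markers were detected in 83% of Vwf-high cells on average. At finer clustering 83 of the 150 formed a subcluster led by Plvap, Sema3c and Kit, without Vwf among its 10 leading genes. The name Vwf-high thus holds for the class as a whole and does not make all its cells larger-vessel endothelium. The myeloid-like classes were 3: interstitial-macrophage-like (179 cells), serous-cavity-macrophage-like (49 cells) and alveolar-macrophage-like cells (20 cells). Of the 179 interstitial-macrophage-like cells, 91 formed a subcluster at finer clustering that was led by Tnip3, Il1b and H2-Ab1, with no interstitial macrophage marker among its 10 leading genes. In these 91 cells dendritic cell markers were detected in 35.5% of cells on average and interstitial macrophage markers in 33.6%, so the name holds for the class as a whole and not for this subcluster, whose values are given beside those of the class for the receptors. The others were gamma-delta-T-cell-like (79 cells), T-cell-like (77 cells), B-cell-like (82 cells), plasma-cell-like (24 cells) and contractile-mesenchymal-like cells (92 cells), and cluster 4, left unnamed, which was led by Scgb1a1, Gpc3 and Dcn (138 cells). Library 2 consisted mostly of endothelial-like cells, 154 of 199, so values within library 2 outside the endothelium rest on few cells. The 10 endothelial markers summed to 266 and 228 UMIs per 10000 in the aerocyte-like and Vwf-high cells, and to between 0.113 and 9.28 in the other 9 classes. The 4 pan-leukocyte markers summed to 0.155 and 0.288 in the endothelial-like classes and to between 12.7 and 46.5 in the myeloid-like, T-cell-like, B-cell-like and plasma-cell-like ones.

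The regions around the transcription starts of the 4 ligand genes are shown because 3 of these ligands shared an endothelial peak and the fourth did not. Each line gives 250 bases before and 50 after the RefSeq start, 5′ to 3′ on the gene's own strand (RefSeq, build GRCm38.p6). Capitals mark matches to GGGCGG (GC box) or to the core of interferon response elements (GAAA, any 2 bases, GAAA), searched on both strands.
Cd47 (chr16:49855404-49855703, plus strand): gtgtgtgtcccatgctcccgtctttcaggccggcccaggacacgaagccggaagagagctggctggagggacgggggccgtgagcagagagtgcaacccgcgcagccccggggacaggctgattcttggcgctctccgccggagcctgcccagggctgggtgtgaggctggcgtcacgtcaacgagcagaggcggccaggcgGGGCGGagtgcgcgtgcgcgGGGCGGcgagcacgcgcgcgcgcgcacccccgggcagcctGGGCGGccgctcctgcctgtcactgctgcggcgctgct
Cd200 (chr16:45409004-45409303, minus strand): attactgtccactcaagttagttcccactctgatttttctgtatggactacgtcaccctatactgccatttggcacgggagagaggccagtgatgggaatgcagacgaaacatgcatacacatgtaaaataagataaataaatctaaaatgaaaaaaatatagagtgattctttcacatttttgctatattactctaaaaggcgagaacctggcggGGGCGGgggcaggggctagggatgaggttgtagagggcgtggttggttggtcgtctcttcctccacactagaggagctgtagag
H2-T23 (chr17:36032652-36032951, minus strand): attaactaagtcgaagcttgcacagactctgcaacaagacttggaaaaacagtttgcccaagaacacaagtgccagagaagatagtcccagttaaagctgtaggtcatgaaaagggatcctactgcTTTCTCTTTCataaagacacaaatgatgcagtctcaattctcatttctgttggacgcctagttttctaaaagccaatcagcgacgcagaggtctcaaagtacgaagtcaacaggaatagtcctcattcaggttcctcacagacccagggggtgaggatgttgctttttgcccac
Cd274 (chr19:29367188-29367487, plus strand): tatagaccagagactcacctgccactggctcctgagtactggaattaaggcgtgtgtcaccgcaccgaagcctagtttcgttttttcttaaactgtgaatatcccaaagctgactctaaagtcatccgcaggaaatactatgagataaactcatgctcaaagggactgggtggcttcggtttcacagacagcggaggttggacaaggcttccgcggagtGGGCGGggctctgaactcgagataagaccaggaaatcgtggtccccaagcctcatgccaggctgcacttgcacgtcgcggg
The Cd47 window was 74.0% G and C and held 3 GC boxes, the Cd274 window was 52.7% G and C with 1, and the Cd200 window was 45.0% G and C with 1. The H2-T23 window was 44.3% G and C and held no GC box, but 1 match to the interferon response core, read as TTTCTCTTTC on the printed strand from base -124 relative to the start. Among 32851 mouse promoter windows of the same length, 35.7% held a GC box and 3.44% the interferon response core. None of the 4 windows held CCGGAAGT (an ETS factor motif, in 3.89% of all windows). These are matches of letters and show no binding.

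Among the ligands, Cd47, Cd200 and H2-T23 transcripts were all highest in the endothelial-like classes, while Cd274 was highest in the alveolar-macrophage-like class. Against all other cells, 3 of the 7 members were at least 2 times higher in endothelial-like cells, where 26.0% of all 12702 genes tested were, and 2 (Pdcd1 and Cd200r1) were at least 2 times lower, where 23.2% of all genes were. The median log2 ratio of all genes tested was 0.41 in that comparison. With backgrounds of this size the counts of members do not stand out, and the description below rests on the levels of each gene.

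**Figure D1:**
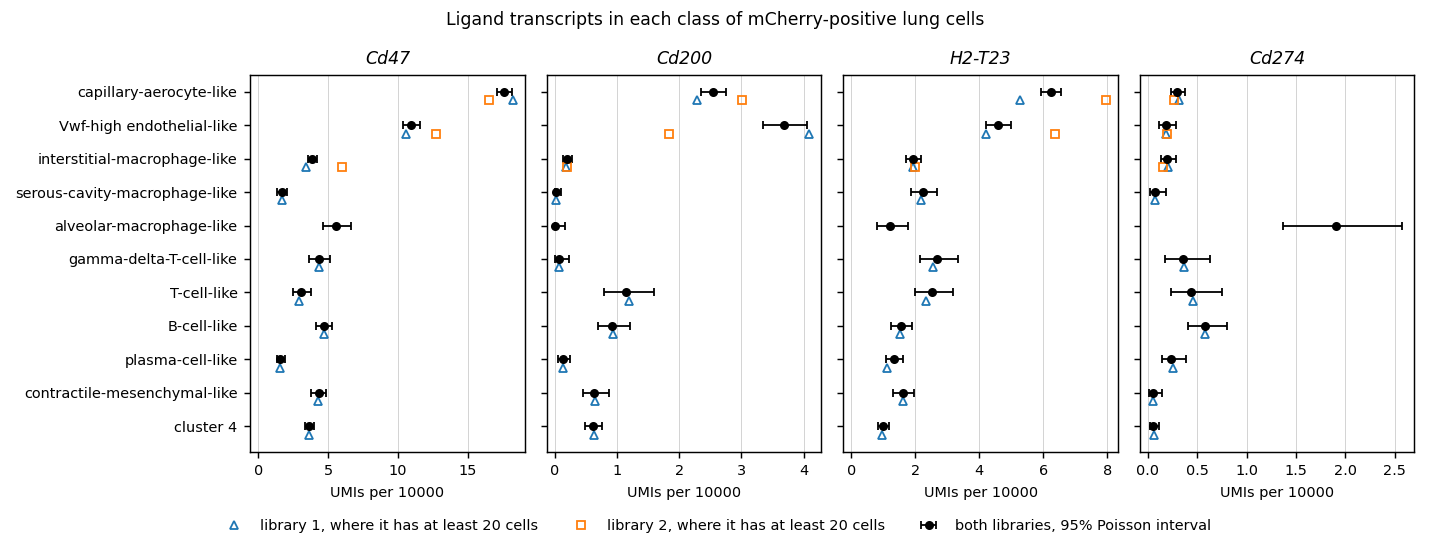
UMIs per 10000 of the 4 ligands in the 11 classes, with black points for both libraries together, bars for the 95% Poisson interval, and open symbols for each library where it has at least 20 cells of the class. Cd47, Cd200 and H2-T23 peak in the 2 endothelial-like classes, Cd274 in the alveolar-macrophage-like one, and the order of the 2 endothelial-like classes for Cd200 differs between libraries.

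Cd47 (ENSMUSG00000055447.19, chr16:49800533-49915010, plus strand of GRCm38) encodes the ligand of SIRPα. It was seen in 454 of 454 capillary-aerocyte-like cells at 17.6 UMIs per 10000 (17.1 to 18.1). Per cell the lowest value was 2.31, the median 17.1 and the highest 59.6, so no aerocyte-like cell was without it. Vwf-high endothelial-like cells followed with 11 (10.4 to 11.6), and alveolar-macrophage-like cells came next with 5.57 (4.63 to 6.65). Below these, the order ran through B-cell-like (4.68), gamma-delta-T-cell-like (4.33), contractile-mesenchymal-like (4.32), interstitial-macrophage-like cells (3.85) and cluster 4 (3.65) to T-cell-like cells (3.07), and each of these neighbours had a ratio whose interval included 1. Serous-cavity-macrophage-like cells (1.68) and plasma-cell-like cells (1.59) were lowest. All 24 plasma-cell-like cells held a Cd47 UMI, at a median depth of 30153.5 UMIs, and their rate is relative to that depth. Cd47 was therefore detected in every class, and the classes differed in level. The 5 platelet and erythroid markers summed to 0.210 UMIs per 10000 in aerocyte-like cells and to 16.4 in Vwf-high cells, of which Hbb-bs made 12.6, and their part in the Vwf-high Cd47 value was not tested.

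Endothelial-like cells together had 15.4 Cd47 UMIs per 10000 (15 to 15.8, 604 cells), against 3.53 (3.38 to 3.68, 740 cells) in all other cells, a log2 ratio of 2.13 (2.05 to 2.20). Within library 1 the values were 15.2 in endothelial-like cells and 3.44 in other cells, and within library 2 they were 15.8 and 4.59, so the difference was present in both. Shares of cells with a UMI were 98.8% in endothelial-like and 84.7% in other cells. After each cell was thinned to 2500 UMIs they were 95.7% and 57.3%.

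H2-T23 (ENSMUSG00000067212.8, chr17:36029773-36032855, minus strand) belongs to the class Ib genes of the major histocompatibility complex, a family of similar sequences, so a part of its reads may have been assigned to or from relatives. It reached 6.24 UMIs per 10000 (5.93 to 6.56) in capillary-aerocyte-like and 4.58 (4.21 to 4.99) in Vwf-high endothelial-like cells. The gamma-delta-T-cell-like (2.69), T-cell-like (2.53), serous-cavity-macrophage-like (2.25) and interstitial-macrophage-like cells (1.93) came next, and neighbours among these did not differ beyond counting error. Cluster 4 was lowest with 1.01 (0.847 to 1.19). Scgb1a1 alone made 1322 UMIs per 10000 in cluster 4, and its effect on the other rates of that class was not tested. Endothelial-like cells together had 5.69 (5.45 to 5.94), against 1.65 (1.55 to 1.76) in all other cells, a log2 ratio of 1.78 (1.67 to 1.89).

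H2-T23 differed between libraries at the same time. In endothelial-like cells it was 7.66 in library 2 and 4.85 in library 1, and in other cells 2.54 and 1.58. The log2 ratio of endothelial-like over other cells was 1.62 within library 1 and 1.59 within library 2, both below the pooled value. Library 2 supplied 154 of the 604 endothelial-like cells but 45 of the 740 others.

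Cd200 (ENSMUSG00000022661.14, chr16:45382135-45409053, minus strand) encodes the ligand of CD200R1. Its rate was 3.69 (3.35 to 4.05) in Vwf-high endothelial-like cells and 2.54 (2.35 to 2.76) in capillary-aerocyte-like cells. One Vwf-high cell held 23 of the 436 UMIs of that class. T-cell-like cells (1.15, 0.794 to 1.60) and B-cell-like cells (0.926, 0.700 to 1.20) followed, then contractile-mesenchymal-like cells (0.635) and cluster 4 (0.611). Myeloid-like cells were low: 28 UMIs in 179 interstitial-macrophage-like cells, 1 UMI in 49 serous-cavity-macrophage-like cells, and none in 20 alveolar-macrophage-like cells (upper limit of the share of cells with a UMI 15%). Endothelial-like cells together had 2.92 (2.75 to 3.11), against 0.412 (0.363 to 0.466) in all other cells, a log2 ratio of 2.83 (2.63 to 3.03). Within library 1 it was 2.78, and within library 2, whose 45 other cells held 7 UMIs, 4.29 (3.23 to 5.61).

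The order of the endothelial-like classes for Cd200 was not the same in the libraries. Within library 1, capillary-aerocyte-like cells had 2.28 (2.05 to 2.54) and Vwf-high cells 4.08 (3.69 to 4.5). Within library 2, aerocyte-like cells had 3.01 (2.65 to 3.40) and Vwf-high cells 1.83 (1.30 to 2.51, 22 cells). Pooled over libraries, 1 of the 7 members (Sirpa) was at least 2 times higher in aerocyte-like than in Vwf-high cells, where 4.64% of all genes were, and none was at least 2 times lower, where 10.1% were. For Cd47, H2-T23 and Sirpa the aerocyte-like class was higher in both libraries, with ratios of 1.72 and 1.30 for Cd47, 1.25 and 1.25 for H2-T23, and 3.6 and 2.22 for Sirpa in libraries 1 and 2.

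Cd274 (ENSMUSG00000016496.7, chr19:29367455-29388095, plus strand) encodes PD-L1. It was sparse, with 255 UMIs in 181 of 1344 cells. Its rate was 1.90 (1.37 to 2.57) in alveolar-macrophage-like cells, where 12 of 20 cells held a UMI and the per-cell values ran from 0 over a median of 1.43 to 7.22 per 10000. B-cell-like cells followed at 0.579 (0.403 to 0.805, 26 of 82 cells), and this step was the only one in the order of 11 classes whose ratio had an interval above 1 (3.29, 2.05 to 5.30). T-cell-like (0.439), gamma-delta-T-cell-like (0.353) and capillary-aerocyte-like cells (0.298) came next. Cluster 4 (0.0575, and 0.0362 without 1 cell) and contractile-mesenchymal-like cells (0.0489) were lowest. The other myeloid-like cells had 0.163, so the alveolar-macrophage-like rate stood apart from them as well (log2 ratio 3.54, 2.85 to 4.25). In that comparison 2 of the 7 members (Cd274 and Sirpa) were at least 2 times higher, where 15.7% of all genes were, and none at least 2 times lower, where 10.4% were. Of the 20 alveolar-macrophage-like cells 18 were from library 1, where the rate was 2.01 (1.41 to 2.79).

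In endothelial-like cells Cd274 was 0.261 (0.210 to 0.319), against 0.263 (0.224 to 0.306) in all other cells, a log2 ratio of -0.01 (-0.39 to 0.37). Counts this low limit any statement on Cd274 within the endothelium. The rate was 0.298 in capillary-aerocyte-like and 0.186 in Vwf-high cells, with a ratio of 1.60 (0.980 to 2.71).

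Finer clustering split the endothelial-like cells into 5 subclusters along which the members differed. The aerocyte-like ones were a (215 cells, led by Car4), b (142 cells, led by Lmntd1 and Adgrg1) and c (97 cells, led by Apln). The Vwf-high class fell into a Plvap subcluster (83 cells, led by Plvap and Kit) and a Gja4 subcluster (67 cells, led by Vwf and Gja4). Cd47 was 17.4, 19.5 and 15.9 UMIs per 10000 in aerocyte-like subclusters a, b and c, 13.1 in the Plvap subcluster and 6.96 (6.18 to 7.81) in the Gja4 subcluster. H2-T23 was 6.80, 5.76, 5.70, 5.07 and 3.69 over the same 5 subclusters. Cd200, pooled over libraries, ran the other way, with 2.56, 2.27 and 2.80 in the aerocyte-like subclusters, 3.11 in the Plvap subcluster and 4.74 (4.11 to 5.45) in the Gja4 subcluster. For Cd200 this order was that of library 1, where the Gja4 subcluster had 5.06 (58 cells) and the Plvap subcluster 3.47 (70 cells). In library 2 this order was not seen: the Gja4 subcluster had 1.92 (0.827 to 3.77, 9 cells) and the Plvap subcluster 1.81 (1.22 to 2.59, 13 cells), below aerocyte-like subclusters a (3.03), b (2.69) and c (3.04), although the interval of the Gja4 subcluster includes these values. For Cd47, H2-T23 and Sirpa the Gja4 subcluster was the lowest of the 5 in both libraries, with Cd47 at 6.64 in library 1. In library 2 its 9 cells gave intervals that overlapped those of the Plvap subcluster. Cd47 was 9.82 (7.05 to 13.3) against 13.5 (11.8 to 15.3), and H2-T23 4.79 (2.93 to 7.40) against 6.76 (5.57 to 8.14). Sirpa was 0 (upper limit 0.883) against 1.09 (0.644 to 1.72).

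**Figure D2:**
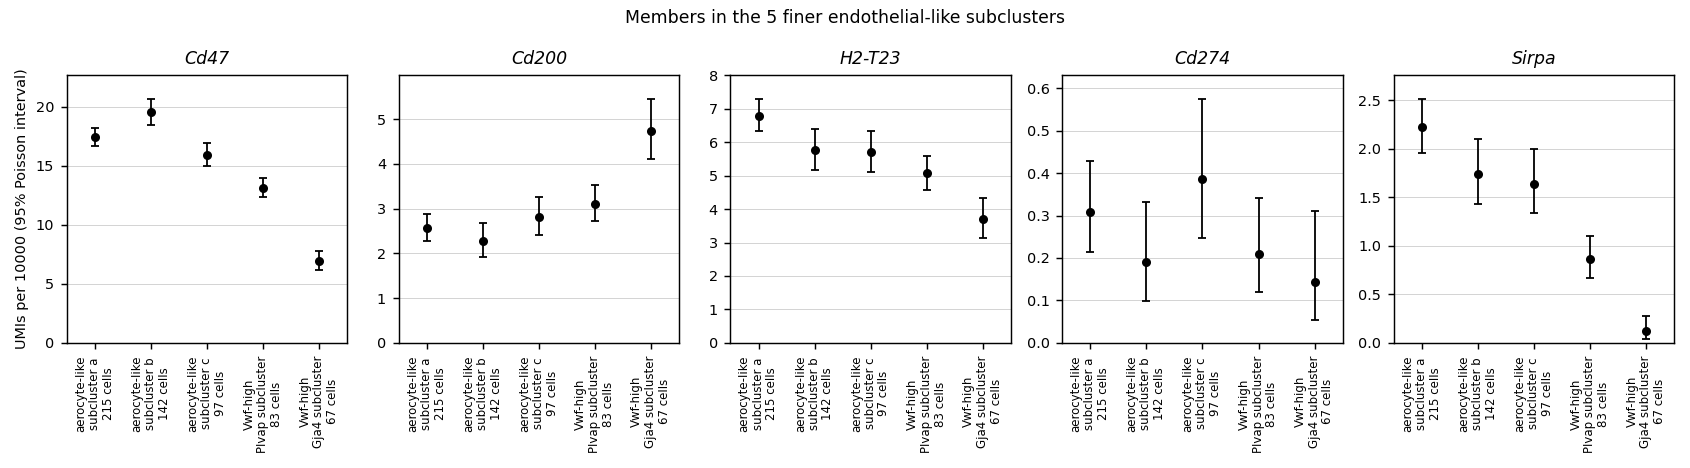
UMIs per 10000, with 95% Poisson intervals, of the 4 ligands and Sirpa in the 5 endothelial-like subclusters, each panel with its own scale from 0. With both libraries together Cd47, H2-T23 and Sirpa are lowest and Cd200 is highest in the Gja4 subcluster of 67 cells, but in library 2 alone Cd200 there is 1.92, below the 3 aerocyte-like subclusters.

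Single endothelial-like cells commonly held several of the ligands. Of 604 endothelial-like cells, 407 held at least 3 of the 4 (67.4%, 63.5 to 71.1%), against 123 of 740 other cells (16.6%). The trio Cd47, Cd200 and H2-T23 was found together in 389 endothelial-like cells, and all 4 ligands in 61. The separate shares alone would give the trio in 273 aerocyte-like (282 seen) and 104 Vwf-high cells (107 seen). They would give all 4 ligands in 36.7 (45 seen) and 14.6 cells (16 seen). The overlap of the trio thus adds little to the separate detection. Depth moves the share with at least 3 ligands: 12 of the 24 plasma-cell-like cells, with a median of 30153.5 UMIs, also held 3 or more. After each cell was thinned to 2500 UMIs, 36.0% of endothelial-like cells and 3.36% of other cells held at least 3, and the plasma-cell-like share was 0.417%. The share was higher in Vwf-high (74.7%) than in aerocyte-like cells (65.0%) before thinning and 33.5% and 36.8% after it, so no order is read between them.

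**Figure D3:**
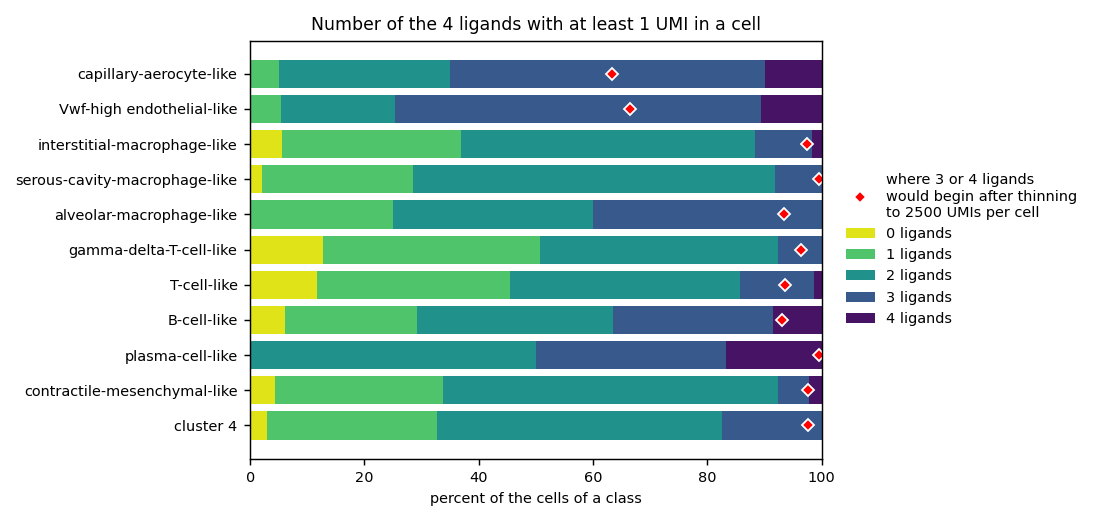
Percent of the cells of each class that held a UMI of 0 to 4 of the 4 ligands, with red diamonds where the bar for 3 or 4 ligands would begin after thinning to 2500 UMIs per cell. The 2 endothelial-like classes have 36.8% and 33.5% of cells to the right of the diamond, and in every other class at most 6.95% of cells lie there.

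Among the receptors, Sirpa was highest in macrophage-like cells but was also present in aerocyte-like endothelium, Cd200r1 was sparse and mostly myeloid, and Pdcd1 was held by T cells. Myeloid-like cells had 2 of the 7 members (Sirpa and Cd200r1) at least 2 times higher than all other cells, where 11.7% of all genes were, and 3 (Cd200, Pdcd1 and Cd47) at least 2 times lower, where 30.6% were. T-cell-like cells had 2 (Pdcd1 and Cd200r1) at least 2 times higher, where 12.1% were, and 3 (Sirpa, Cd200 and Cd47) at least 2 times lower, where 27.5% were.

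**Figure D4:**
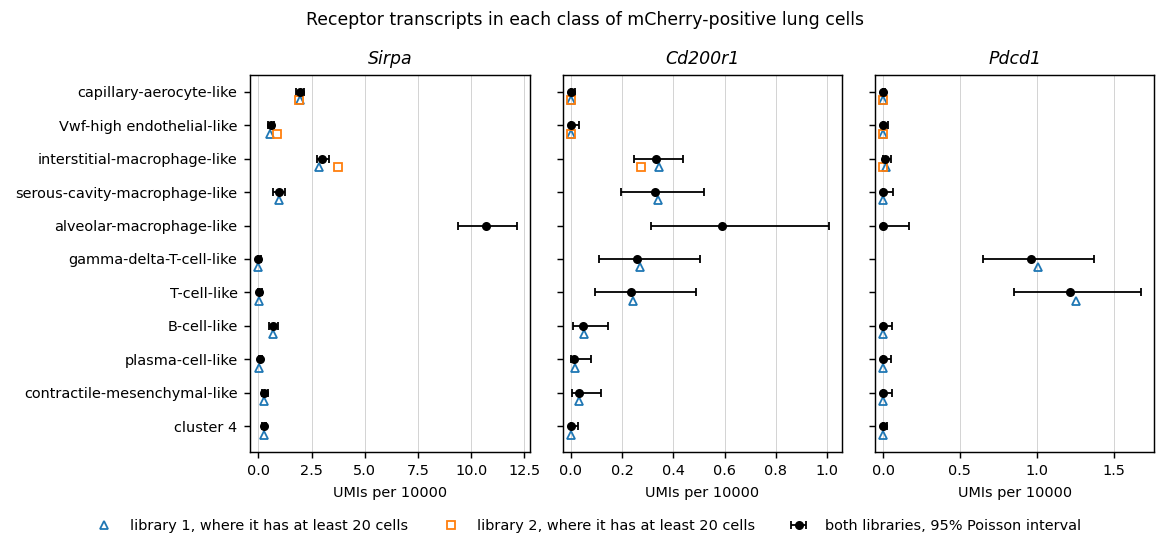
UMIs per 10000 of the 3 receptors in the 11 classes, with the symbols of the ligand plot. Sirpa reaches 10.7 in alveolar-macrophage-like cells, Pdcd1 appears in the gamma-delta-T-cell-like and T-cell-like classes, and Cd200r1 in the 3 myeloid-like classes and, with wide intervals, in the T-cell-like ones.

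Sirpa (ENSMUSG00000037902.18, chr2:129592835-129632228, plus strand) encodes the CD47 receptor, and the related Sirpb1 genes may share some of its reads. Alveolar-macrophage-like cells had 10.7 UMIs per 10000 (9.37 to 12.1), with a UMI in 20 of 20 cells and per-cell values from 6.69 over a median of 11.9 to 21.3. Interstitial-macrophage-like cells had 3.01 (2.74 to 3.31). At the finer clustering they divided into a Cd163 and Folr2 subcluster (88 cells) with 4.18 and a subcluster led by Tnip3, Il1b and class II genes (91 cells) with 2.19. Serous-cavity-macrophage-like cells had 0.95 (0.709 to 1.25). Myeloid-like cells together had 3.27, against 0.847 in all other cells, a log2 ratio of 1.95 (1.79 to 2.10), with 2.12 in library 1 and 1.50 in library 2.

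Capillary-aerocyte-like cells came next for Sirpa, with 1.95 (1.77 to 2.13) and a UMI in 268 of 454 cells, above the serous-cavity-macrophage-like class. The gene was at 1.96 in library 1 and 1.92 in library 2 there. Vwf-high cells had 0.600 (0.469 to 0.757), which was 0.865 in the Plvap subcluster and 0.119 (0.0387 to 0.278) in the Gja4 subcluster. In the same aerocyte-like cells the 4 pan-leukocyte markers summed to 0.155 UMIs per 10000, and a part of leukocyte transcripts in the Sirpa value was not tested. Sirpa was at 0 in 79 gamma-delta-T-cell-like cells (upper limit of the share with a UMI 3.8%) and at 1 UMI in 77 T-cell-like cells. All 318 endothelial-like cells with a Sirpa UMI also held a Cd47 UMI. Since Cd47 was seen in 98.8% of endothelial-like cells, its share alone would give 314 such cells, and the overlap adds nothing to the detection of Cd47. In aerocyte-like cells Cd47 was 17.4 with and 18.0 without a Sirpa UMI, with a ratio of 0.967 (0.908 to 1.03). B-cell-like cells had Sirpa at 0.678 (0.487 to 0.920, 29 of 82 cells). In that class 3 of 10 interstitial macrophage markers were seen, at a sum of 0.513, of which Adgre1 made 0.364. C1qa, C1qc, Cd163, Folr2, F13a1, Lyve1 and Ccl8 were at 0. A part of macrophage transcripts in the Sirpa value of B-cell-like cells was not tested.

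Cd200r1 (ENSMUSG00000022667.18, chr16:44765736-44794978, plus strand) encodes the inhibitory CD200 receptor and has close relatives in the Cd200r family. It was found in 75 of 1344 cells. The rate was 0.589 (0.314 to 1.01) in alveolar-macrophage-like, 0.332 (0.246 to 0.439) in interstitial-macrophage-like and 0.329 (0.195 to 0.520) in serous-cavity-macrophage-like cells. Within the interstitial-macrophage-like class it was 0.361 in the Cd163 and Folr2 subcluster and 0.312 in the one led by Tnip3 and Il1b. It was 0.257 in gamma-delta-T-cell-like cells, or 0.133 without 1 cell, and 0.236 in T-cell-like cells. No 2 neighbours among these 5 classes differed beyond counting error. None of 604 endothelial-like cells held a UMI (upper limit of the share of cells with a UMI 0.497%, which does not limit the share that expresses so sparse a gene), and none of 138 cells of cluster 4 did. Myeloid-like cells together had 0.356 (58 of 248 cells), against 0.0280 (17 of 1096 cells) in all other cells, a log2 ratio of 3.67 (2.96 to 4.44).

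Both phagocyte receptors were seen together in 49 of 248 myeloid-like cells (19.8%, 15 to 25.3%), including 10 of 20 alveolar-macrophage-like cells. The separate shares alone would give 27.2 interstitial-macrophage-like cells (30 seen), 9.43 serous-cavity-macrophage-like cells (9 seen) and 10 alveolar-macrophage-like cells. The overlap thus adds little to the separate detection. Cd200 and Cd200r1 were seen in the same cell in 7 of 1344 cells. The class with most Cd200r1 per UMI thus had no Cd200 UMI, and the classes with most Cd200 had no Cd200r1 UMI.

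Pdcd1 (ENSMUSG00000026285.7, chr1:94038305-94052553, minus strand) encodes PD-1. Of its 68 UMIs, 66 were in T cells of both kinds and 2 in 1 interstitial-macrophage-like cell. Gamma-delta-T-cell-like cells had 0.962 UMIs per 10000 (0.649 to 1.37, 13 of 79 cells) and T-cell-like cells 1.21 (0.851 to 1.68, 20 of 77 cells), a log2 ratio of -0.34 (-1.09 to 0.40), a difference within counting error. No UMI was seen in 604 endothelial-like, 82 B-cell-like, 24 plasma-cell-like or 92 contractile-mesenchymal-like cells. Together the T cells had 1.09, against 0.00219 in all other cells, a log2 ratio of 8.95 (7.04 to 12.03). Library 2 held 6 such T cells, none with a Pdcd1 UMI, so the value rests on library 1. Between the 2 T classes, 1 of the 7 members was at least 2 times lower in gamma-delta-T-cell-like cells, where 6.94% of all genes were. It was Cd200, with 2 UMIs in 79 cells of that class and 34 UMIs in 77 T-cell-like cells, and 10.5% of all genes were at least 2 times higher.

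T cells with a Pdcd1 UMI were set beside those without one, in a comparison chosen after seeing the data. The 33 cells with a UMI had a median of 3712 UMIs and the 123 without one 3570. Cd200 was seen in 9 of the 33 and in 7 of the 123, at 1.94 (1.27 to 2.84) and 0.211 (0.101 to 0.388) UMIs per 10000. Most of this lay in the T-cell-like class, where 8 of 20 cells with and 6 of 57 without a Pdcd1 UMI held Cd200, at 3.12 and 0.416, or 2.24 and 0.416 without the cell holding most UMIs. Within the T-cell-like class Tnfrsf4, which encodes the costimulatory receptor OX40, was 5.5 (4 to 7.38) with and 1.48 (1.01 to 2.09) without a Pdcd1 UMI. Klrd1, which encodes CD94, the partner of NKG2A, was 0.5 (0.136 to 1.28) and 1.85 (1.32 to 2.52) there. NK cell markers were detected in 21.8% of cells of this class on average. In both T classes together the Klrd1 ratio was 0.442 (0.136 to 1.12). Klrc1, which encodes NKG2A itself, went the other way, at 0.448 with and 0.211 without a Pdcd1 UMI (ratio 2.12, 0.634 to 6.44). Over both T classes Cd274 was 0.373 with and 0.401 without a Pdcd1 UMI, and H2-T23 2.54 and 2.64, differences well inside counting error. PD-1 and PD-L1 transcripts met in the same T cell in 4 of 156 cells, 2 in each T class. The separate shares alone would give 1.65 gamma-delta-T-cell-like and 2.60 T-cell-like cells.

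Endothelial-like cells with a Cdkn2a UMI were also set beside those without one, since Cdkn2a is the gene the reporter stands for. Of the 7 members 5 could be compared, since Pdcd1 and Cd200r1 had no UMI in these cells. None of the 5 differed by 2 times, where 2.49% of all genes were at least 2 times higher and 4.81% at least 2 times lower. The 328 cells with a UMI had a median of 5746.5 UMIs and the 276 without one 4627.5. Cd47 was 15.9 with and 14.6 without a Cdkn2a UMI (ratio 1.09, 1.03 to 1.15), and 16.9 and 16.3 after matching within cluster, library and depth. In aerocyte-like cells Cd47 was 17.4 with and 18.0 without a Cdkn2a UMI (ratio 0.964, 0.905 to 1.03). Within aerocyte-like subcluster a it was 16.6 and 19.1 (ratio 0.870, 0.793 to 0.955). The ratio was above 1 in subclusters b (1.12, 0.998 to 1.25) and c (1.08, 0.936 to 1.24), with intervals that included 1. In Vwf-high cells Cd47 was 12.0 and 9.96 (ratio 1.21, 1.08 to 1.35), with ratios of 1.14 in library 1 and 1.41 in library 2. Within their Plvap subcluster it was 12.7 and 14.0 (ratio 0.908, 0.798 to 1.03), and within their Gja4 subcluster 7.70 and 6.80 (ratio 1.13, 0.832 to 1.52). H2-T23 was 6.10 and 5.11 (1.20, 1.09 to 1.31), but 6.13 and 5.76 after the same matching, and the log2 ratio was 0.045 in library 1 and 0.092 in library 2. Cd274 was 0.267 and 0.252 (ratio 1.06, 0.689 to 1.65). As log2 ratios, Cd47 (0.12) and H2-T23 (0.26) were small beside those of endothelial-like over all other cells (2.13 and 1.78). The log2 ratios were also set beside those of aerocyte-like over Vwf-high cells, within libraries 1 and 2 in turn. For H2-T23 the Cdkn2a log2 ratios were 0.045 and 0.092, beside 0.324 and 0.325. For Cd47 they were 0.097 and 0.22, beside 0.79 and 0.37. For Cd274 the interval was too wide for such a comparison.

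Cd200 was 2.72 with and 3.21 without a Cdkn2a UMI (ratio 0.849, 0.750 to 0.961), and the direction was not kept: after matching the values were 2.63 and 2.59, and in library 2 they were 2.86 and 2.42. Capillary-aerocyte-like cells had 2.70 and 2.26, and Vwf-high cells 2.78 and 4.52, with and without a Cdkn2a UMI. The subclusters of the Vwf-high class differed in Cdkn2a as well: 47 of 83 cells of the Plvap subcluster and 6 of 67 cells of the Gja4 subcluster held a UMI, at median depths of 8985 and 4201 UMIs. Within the Plvap subcluster Cd200 was 2.85 with and 3.57 without a Cdkn2a UMI (ratio 0.799, 0.613 to 1.05). Within the Gja4 subcluster it was 2.30 and 5.27 (ratio 0.436, 0.248 to 0.717), but only 6 cells there held a Cdkn2a UMI. Sirpa followed the same split. Over Vwf-high cells it was 0.867 with and 0.356 without a Cdkn2a UMI (ratio 2.43, 1.44 to 4.23). Within the Plvap subcluster it was 0.937 and 0.735 (ratio 1.27, 0.739 to 2.27). In the Gja4 subcluster the 6 cells with a Cdkn2a UMI held 3 Sirpa UMIs and the 61 without one held 2.

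**Figure D5:**
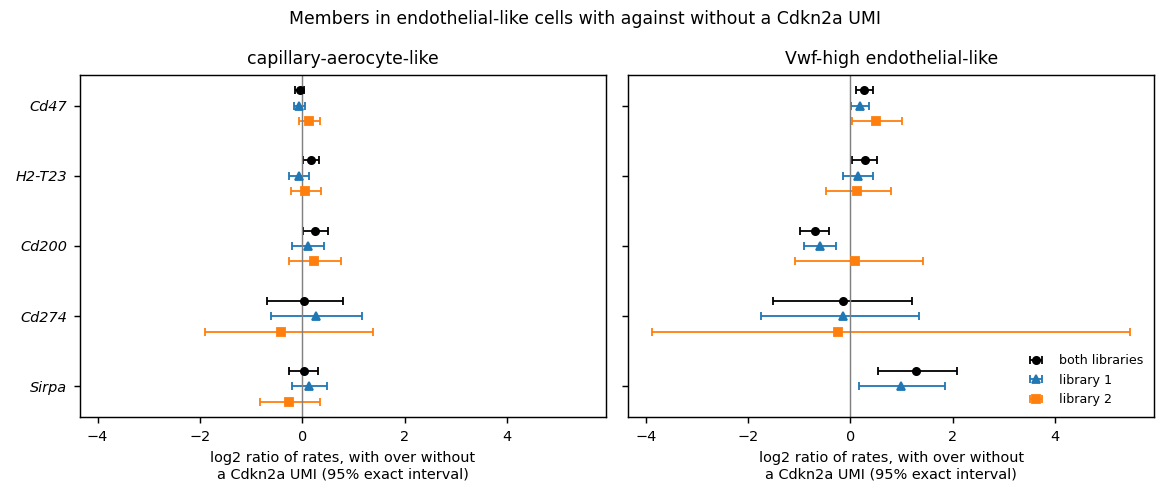
Log2 ratio of the rates in endothelial-like cells with over without a Cdkn2a UMI, with 95% exact intervals for counting error, in both endothelial-like classes and in each library; Sirpa in library 2 has no point for Vwf-high cells, since the 10 cells without a Cdkn2a UMI held none. In Vwf-high cells Cd47 lies above 0 with both libraries and in each, Sirpa above 0 with both and in library 1, and Cd200 below 0 with both and in library 1 but not in library 2.

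The rest of the pathway was described with lists of related genes. Of 16 checkpoint receptors tested, Pdcd1 among them, all 16 were at least 2 times lower in endothelial-like cells, where 23.2% of all genes were, among them Ctla4 (0.00280 against 0.345), Cd28 (0 against 0.423) and Icos (0 against 0.308), and in T cells 12 of 16 were at least 2 times higher, where 12.1% of all genes were, with Cd96 at 0.707 against 0.00110 and Cd226 at 1.17 against 0.0197. The median log2 ratio of this list was -4.22 in endothelial-like and 4.29 in T cells, with genes at 0 taken at their bound of 3 counts. Over all genes tested it was 0.41 and -0.27. Of 21 receptors in the table, these 16 were detected in at least 1% of all cells. A gene confined to T cells can pass that limit through T cells alone. The counts are therefore partly set by the limit and are given as a description only.

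Of 25 checkpoint ligands tested, Cd274 and H2-T23 among them, 6 were at least 2 times higher and 9 at least 2 times lower in endothelial-like cells, with a median of -0.18, where 26.0% and 23.2% of all genes were, with a median of 0.41. Cd86, a costimulatory ligand of CD28 and CTLA-4, was at 0 in endothelial-like cells, against 0.711 in all other cells, and Tnfsf9, the ligand of 4-1BB, was 0.00280 against 0.512. In myeloid-like cells 8 of the 25 were at least 2 times higher and 5 at least 2 times lower, where 11.7% and 30.6% of all genes were, the higher ones including Cd86 at 1.75 against 0.0627 and Vsig4, a complement receptor that restrains T cells, at 1.15 against 0.00267. Nectin3 was 0.0401 in myeloid-like cells, against 2.08 in all other cells. Of 5 ligands that NK receptors read and that passed the detection limit, 2 were at least 2 times higher in endothelial-like cells and 1 at least 2 times lower. Of all genes 26.0% and 23.2% were. The median log2 ratio of the 5 was -0.18, beside 0.41 over all genes, so the list as a whole was not raised. Among the higher ones Clec2d, a ligand of the NKR-P1 receptors, was 8.85 in endothelial-like cells, against 1.67 in all other cells (log2 ratio 2.41, 2.31 to 2.51).

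Receptors and other genes that restrain phagocytes were mainly myeloid. Of 23 tested, Cd47, Cd200, Sirpa and Cd200r1 among them, 15 were at least 2 times higher in myeloid-like cells (11.7% of all genes, median log2 ratio 3.36, beside -0.47 over all genes), for example Pirb, an inhibitory receptor for class I molecules, at 2.10 against 0.0374, and Cd300a at 1.22 against 0.004. Of 26 genes of uptake 17 were at least 2 times higher, with Marco at 1.19 against 0.00133 and the immunoglobulin receptor gene Fcgr3 at 4.36 against 0.00801. Some listed genes were also markers used to name the classes, so their direction is no separate result. These were C1qa, C1qb, C1qc, Marco and Fcgr4 for uptake, and Pecam1, Cd52 and Cd22 in the first list. Genes confined to myeloid-like cells could also pass the detection limit through those cells alone. Within the myeloid-like cells these lists were unequal. Alveolar-macrophage-like cells had Cd300lf at 4.35, against 0.0593 in the other myeloid-like cells, but C1qc at 0.861 against 28.0 and Stab1 at 0.0453 against 3.78.

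Genes that act inside the cell behind these receptors were measured too. Of 14 signalling and maturation genes, 7 were at least 2 times higher and 2 at least 2 times lower in endothelial-like cells (median log2 ratio 0.90). Of all genes 26.0% and 23.2% were, with a median of 0.41. The 2 lower ones were Ptpn6, which encodes SHP-1, at 0.0112 against 1.08, and Dok2, at 0 against 0.407. Among the higher ones Tap2, a subunit of the peptide transporter that loads class I molecules, was 1.29 against 0.334 and Erap1, which trims their peptides, 0.608 against 0.201. Of 12 interferon gamma pathway genes, 4 were at least 2 times higher and 3 at least 2 times lower (median 0.91), shares near those of all genes. Ifngr2, a chain of the receptor, was 1.31 in endothelial-like cells, against 0.355 in all other cells. Ifng itself was at 0 in endothelial-like cells, and in T cells it was 1.97 with no UMI in any other cell, mostly in the T-cell-like class (3.95, against 0.0962 in the gamma-delta-T-cell-like class it is set beside).

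Genes whose mean natural-log values followed each member most closely over the 11 classes were sought among the 9365 genes seen in 5% of cells or more. These are correlations over 11 points that share libraries, and in so many genes high values arise in number. For Cd47 they included Rcan3 and Caml (Pearson r 0.962 and 0.961). For Cd200 they were Acacb, Hdac7 and Armc1 (0.982, 0.970 and 0.968). For H2-T23 they were Tox2, Pitpnc1 and Ciao1 (0.974, 0.969 and 0.949). Cd274 was followed by Gpcpd1, Malt1 and Bop1 (0.953, 0.952 and 0.941), and Sirpa by Tmem189, Ctns and Renbp (0.967, 0.966 and 0.966). Cd200r1 was followed by Myo9b, Zc3h12a and Ccl6 (0.966, 0.960 and 0.957). Pdcd1 was followed by Il2rb, Trac and Trbc2 (0.9996, 0.998 and 0.995), of which the last 2 encode constant parts of the T cell receptor.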

How the data were processed

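Lung cells sorted for mCherry were profiled on the 10x Genomics Chromium with v3 3′ chemistry, per the labels' protocols. Cell Ranger 3.0.2 and the mm10 build are named in the submitters' processing notes. The sources used here state no annotation, cell filter or doublet step. The authors deposited natural log values of 1 plus UMIs per 10000, as back-transformation showed: in each cell they were whole multiples of what 1 UMI is worth (largest deviation 1.78e-10), so whole UMIs were recovered for rates. Depth per cell ran from 2517 to 49467 UMIs.

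Cells were clustered with scanpy 1.11.5 (2000 variable genes without the 137 described, 20 components, 15 neighbours, Leiden resolution 0.5, igraph 0.11.9). Class names were rebuilt from marker lists and leading genes, and shares may differ from the authors' own. No doublets were removed, and 34 cells (2.53%) with markers of several lineages were left out in an alternative. Genes detected in at least 1% of cells (12702) were compared. A gene is called higher or lower when the rates differ at least 2 times. Rates of 0 enter a ratio as 3 counts. Ratio intervals are exact and conditional on the summed count. With 1 pooled sample no test was run. The ratio steps were tested on simulated data. The members and lists were chosen with earlier results of these data known. From each list up to 5 genes detected in at least 5% of the cells of a class, with the largest distance of the ratio from 1, could be named, with the 3 genes most alike to each member. A gene alike to Cd47 and a promoter motif are not reported here. Promoter windows are from RefSeq (GRCm38.p6). Gene positions are from the GENCODE annotation of GRCm38. Other resolutions, 30 components, assignment cell by cell, means over cells, leaving out the cell with most UMIs, at least 2 Cdkn2a UMIs, each library alone and matched Cdkn2a comparisons were the alternatives. Leaving out cluster 4 or plasma-cell-like cells, the finer Cdkn2a comparison and the Pdcd1 and Sirpa comparisons within cells were chosen after seeing the data.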

Additional observations from a re-analysis of the deposited data

How the results depend on the processing

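Of 87 alternative values, 69 stayed within the counting interval of the value reported, 16 left it with the direction kept and 2 left it and changed direction. Some Cd274 values changed sign inside their wide intervals and are among the 69. In library 2 alone its log2 ratio by class went from -0.01 to 0.18, and that with over without a Cdkn2a UMI from 0.087 to -0.36. Class values at resolution 1.0 equalled those reported, so these alternatives add no check. As log2 ratios of endothelial-like over other cells, Cd47 (2.13) was 1.78 in library 2 alone and 2.03 without plasma-cell-like cells. Cd200 (2.83) was 4.29 in library 2 alone, 2.54 as a mean over cells and 3.05 without cluster 4. H2-T23 (1.78) was 1.62 in library 1 alone, 1.59 in library 2 alone, 1.65 as a mean over cells and 1.63 without cluster 4. Sirpa, in myeloid-like over other cells (1.95), was 2.12 in library 1 alone, 1.50 in library 2 alone and 1.73 without cluster 4. With over without a Cdkn2a UMI, Cd200 (-0.24) changed direction to 0.021 after matching and to 0.24 in library 2 alone. H2-T23 (0.26) was 0.089 after matching, 0.045 in library 1 alone and 0.092 in library 2 alone, and Cd47 (0.12) was 0.22 in library 2 alone. The causes were not tested. Leaving out cluster 4 or plasma-cell-like cells was chosen after seeing the data. Pdcd1 gave no value in library 2 alone or under assignment cell by cell, and Cd200r1 none in library 2 alone, since the other cells held no UMI. For Pdcd1 in library 2 the 6 T cells held no UMI either. Assignment cell by cell placed 1176 of 1325 cells in the lineage of their cluster. No paired analysis was possible because both samples belong to 1 group and no test was made. Classes of 20 to 49 cells and genes as sparse as Cd274 and Cd200r1 limit what the depth can show.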

Other observations

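The endothelial-like classes differed in other genes of presentation and interferon response. Capillary-aerocyte-like cells had the class Ib gene H2-Q6 at 1.38 UMIs per 10000 and Vwf-high cells at 3.76 (log2 ratio -1.45, -1.66 to -1.24), the opposite order to H2-T23, though both genes belong to families of similar sequences. The interferon gamma receptor chains were split as well. Ifngr1 was 1.53 in aerocyte-like and 3.71 in Vwf-high cells, and Ifngr2 was 1.58 and 0.761. Gbp2, an interferon-induced GTPase, was 0.260 in aerocyte-like and 0.846 in Vwf-high cells. Gas6, a bridging ligand that marks dying cells for uptake through the TAM receptors, was 0.0168 in aerocyte-like and 0.423 in Vwf-high cells.

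Alveolar-macrophage-like cells held transcripts of both PD-1 ligands. Besides Cd274, Pdcd1lg2, which encodes PD-L2, had 6 UMIs in the 20 cells and 2 in the other 228 myeloid-like cells. Cd86 had no UMI in them, against 1.94 in the other myeloid-like cells. Cd200r4, an activating relative of Cd200r1, was 0.861 in alveolar-macrophage-like and 0.0395 in other myeloid-like cells. Gamma-delta-T-cell-like cells had the costimulatory receptor genes Icos at 4.2 and Cd28 at 0.738, against 1.75 and 6.01 in T-cell-like cells, and Klrd1, needed for binding of Qa-1b by NKG2A, at 1 UMI against 44.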
